A study of Mus musculus with 10 samples.

Results

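The genes described here encode the chaperones and regulators of the unfolded protein response (UPR) of the endoplasmic reticulum (ER), together with the heat shock proteins of the cytosol and mitochondria. A list of 42 gene symbols defined the set, and 41 of them matched a gene among the 55401 of each deposited table, while Crel1 matched none. By role, 23 belong to the ER (14 chaperones and folding enzymes, 6 UPR factors and 3 genes of ER-associated degradation, ERAD), 16 are heat shock genes (9 cytosolic and 7 small heat shock proteins), and 2 encode the mitochondrial chaperonin.

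RNA from the left ventricle (LV) of 10 WT mice, bred on a C57BL/6 background and 4 weeks old, was sequenced, and each mouse gave 1 library. In the 5 nAAC mice the ascending aorta had been constricted soon after birth, so that the LV grew up against a raised pressure load. The 5 sham mice had the sham operation at the same age, and all pups stayed with their mothers and were breast fed. Males and females were allotted to either group at random and the labels do not give the sex of a mouse. The comparison asks how the LV transcriptome differed between the groups.

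Proteins that enter the ER are folded there by chaperones such as BiP (Hspa5) and by protein disulfide isomerases. When unfolded proteins build up, the membrane sensors ATF6, IRE1 and PERK raise these chaperones through cleaved ATF6, spliced Xbp1 and the translation of Atf4, and PERK shares its arm with the wider integrated stress response. In the cytosol heat shock factor 1 (Hsf1) drives Hsp70 and Hsp90 genes, and cardiac muscle is known for its very high content of small heat shock proteins such as Cryab, which with Bag3 guard filament proteins under mechanical load.

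Levels are given in FPKM, that is fragments scaled by transcript length and by the size of the library, a unit which corrects for transcript length and library depth but not for a shift in RNA composition. Differences are log2 FC, nAAC minus sham, on log2(FPKM + 1), from a limma fit over 11867 genes with a mean of at least 1 FPKM, and a gene is said to have risen or fallen when its adjusted p was below 0.05. All 41 genes passed that filter, although Hspa1a and Hspa1b, with a mean below 1 FPKM in sham mice, passed it through the nAAC mice. The p values measure the spread between these mice.

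Part of the heat shock genes and part of the ER genes rose, with the larger median log2 FC in the heat shock genes. Over all 11867 genes, 3211 rose, or 27.1%, and 546 fell, or 4.6%, around a median log2 FC of 0.22, so that an unremarkable gene lay somewhat above 0. Among the 16 heat shock genes 11 rose and none fell (limma; at an unadjusted p below 0.05 also none fell), with a median log2 FC of 0.97. Among the 23 ER genes 11 rose and 1 fell, with a median of 0.41. Of the 2 chaperonin genes none was called by limma (0 at an unadjusted p below 0.05), and their median was 0.05. A call together with a log2 FC above 1 was found for 7 heat shock genes and 5.01% of all genes, and with one below -1 for 0.893% of all genes. The heat shock counts here and below include Hspa1a and Hspa1b, near-identical genes that passed the filter through the nAAC mice. For these 2 genes the calls are a description and are not read against all genes. At a mean of at least 5 FPKM, which leaves out these 2 genes and Dnajb1, 9 of 13 heat shock genes rose, beside 1725 of 6505 genes. There 5 of the 34 genes of the set still tested had a call and a log2 FC above 1. No ER gene had a log2 FC past 1 in either direction on log2(FPKM + 1), whatever its p (limma). The added 1 shrinks the log2 FC of low levels, and the nAAC means of Sdf2l1 and Ddit3 were 2.62 and 2.08 times the sham means. The values of the nAAC mice were all above those of the sham mice for 17 of the 41 genes, against 18.9% of all genes, and all below for 1, against 3.46%. Of those 17, 12 were heat shock genes, Hspa1a and Hspa1b among them, and 5 ER genes.

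**Figure D1:**
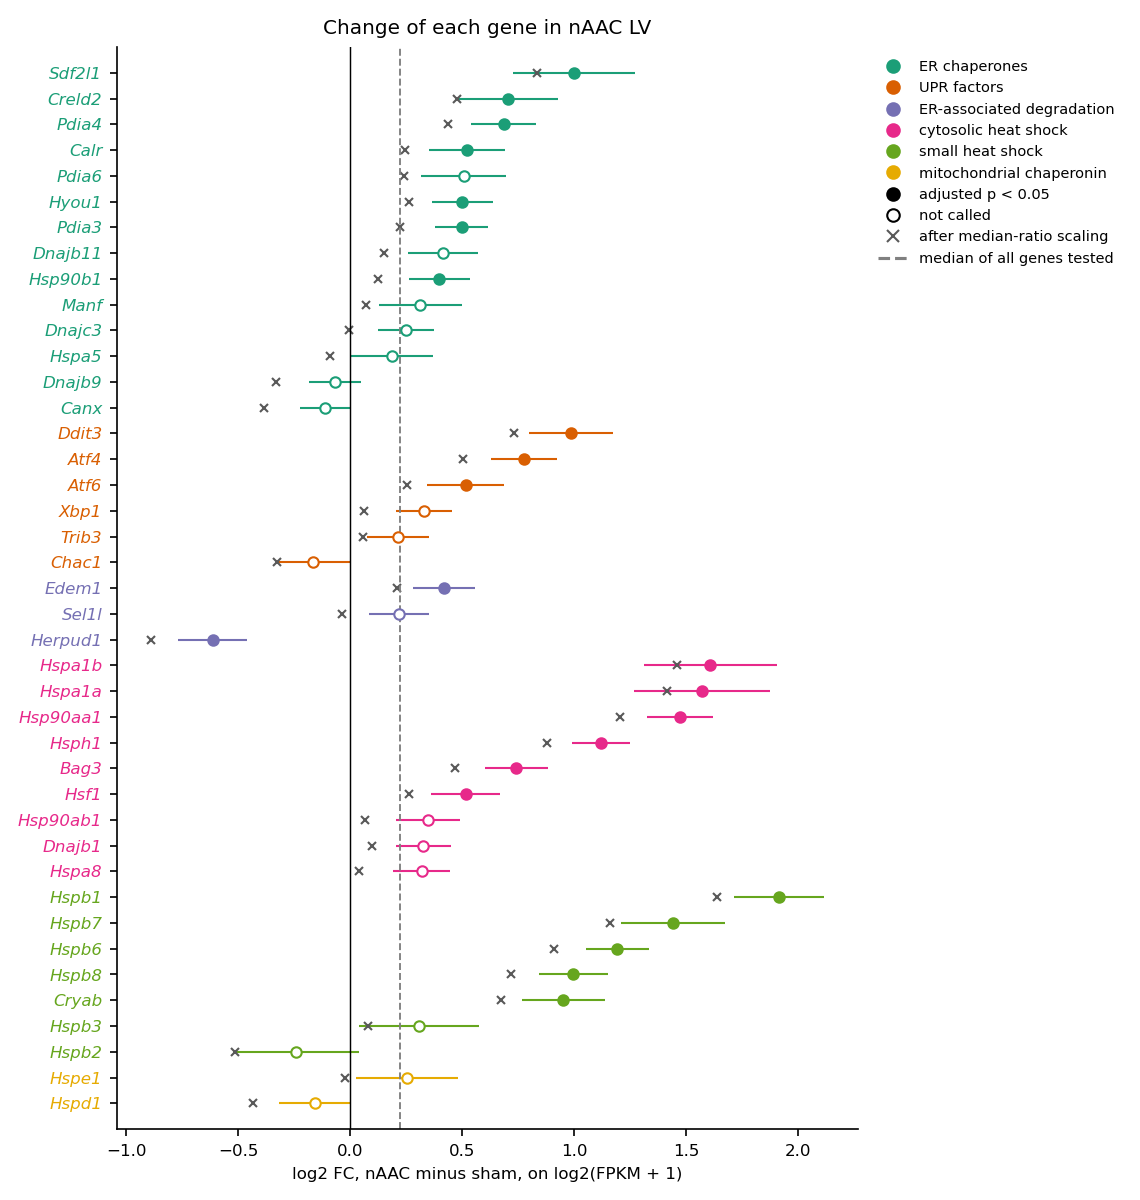
Log2 FC (nAAC minus sham, horizontal axis) of the 41 genes, grouped by role, with bars for the SE. Filled circles passed adjusted p < 0.05 and open circles did not, crosses give the log2 FC after median-ratio scaling, and the dashed line is the median of all genes tested, 0.22; the small and cytosolic heat shock genes reach 1.91 while the ER genes end at 0.998.

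Mitochondrial genes took 32.8% to 39.9% of the TPM (transcript share scaled to a fixed total) in nAAC libraries and 33.7% to 49.8% in sham libraries, and the number of genes at 1 FPKM or more was 11889 to 12455 and 11182 to 11721. Read totals were not in the tables, and a depth of 4.86 to 6.82 gigabases per library was estimated from the most common ratio of FPKM to read coverage, which 15.0% to 16.5% of genes above 1 FPKM shared. The lowest mean read coverage of any of the 41 genes was 1.503 reads per base, for Sdf2l1. Because the median gene was above 0, each count was repeated after median-ratio scaling, which brings that median to 0.00. Then 13.2% of all genes rose and 12.1% fell, while 10 of the 16 heat shock genes rose and none fell (limma, 0 at an unadjusted p below 0.05), and 4 of the 23 ER genes rose and 2 fell (Herpud1 and Canx). A set of 13 genes kept their call in all alternatives that tested them, namely Hspb1, Hspb6, Hspb7, Hspb8, Cryab, Hsp90aa1, Hsph1, Hspa1a, Hspa1b, Bag3, Atf4, Ddit3 and Pdia4. Among them Hspa1a and Hspa1b had passed the filter through the nAAC mice.

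Xist, the RNA that coats the inactive X chromosome of female cells, was above 3 FPKM in 4 of 5 nAAC and 2 of 5 sham mice and at most 0.0232 FPKM in the others, so sex, as far as Xist shows it, and operation were partly confounded. With the Xist level as a covariate 13.4% of all genes rose and 3.29% fell. Of the 23 ER genes 4 were then called, Atf4, Ddit3, Pdia4 and Herpud1, and of the 16 heat shock genes 10, all of the 11 but Hsf1 (log2 FC 0.28, adjusted p = 0.252).

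Sham mouse 4 stood apart from the other sham mice. Mitochondrial genes took 33.7% of its TPM, against 38.3% in sham mouse 5 and 46.5% to 49.8% in sham mice 1 to 3. Xist was at 3.7 FPKM in sham mouse 4 and 10.6 FPKM in sham mouse 5, the sham mice above 3 FPKM. Leaving out sham mouse 4 therefore also changes the balance of sex between the groups, as far as Xist shows it. Sham mouse 4 differed in the genes of the set as well. It was the highest sham mouse for 22 of the 41 genes and for 13 of the 23 ER genes, and the lowest for 6. Its deviation from the other sham mice fell with transcript length, with a Spearman correlation of -0.64 across the 41 genes and -0.66 across all genes, which are not independent replicates and share the library. Short transcripts such as Hspb3, Sdf2l1 and Hspb2 lay 1.34, 1.08 and 1.03 above the other sham mice on the log2(FPKM + 1) scale, and the long transcripts of Atf6 and Sel1l lay at -0.87 and -0.56. Without this mouse 33.1% of all genes rose and 5.23% fell, and 13 of 16 heat shock genes and 14 of 23 ER genes rose. Values without it are given beside each gene whose call turned on it. The genes that passed only without it, or in few other alternatives, were Pdia6, Dnajb11, Manf, Xbp1, Dnajb1 and Hspb3. With all mice and the Xist level as a covariate their adjusted p ran from 0.156 to 0.761 (limma).

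**Figure D2:**
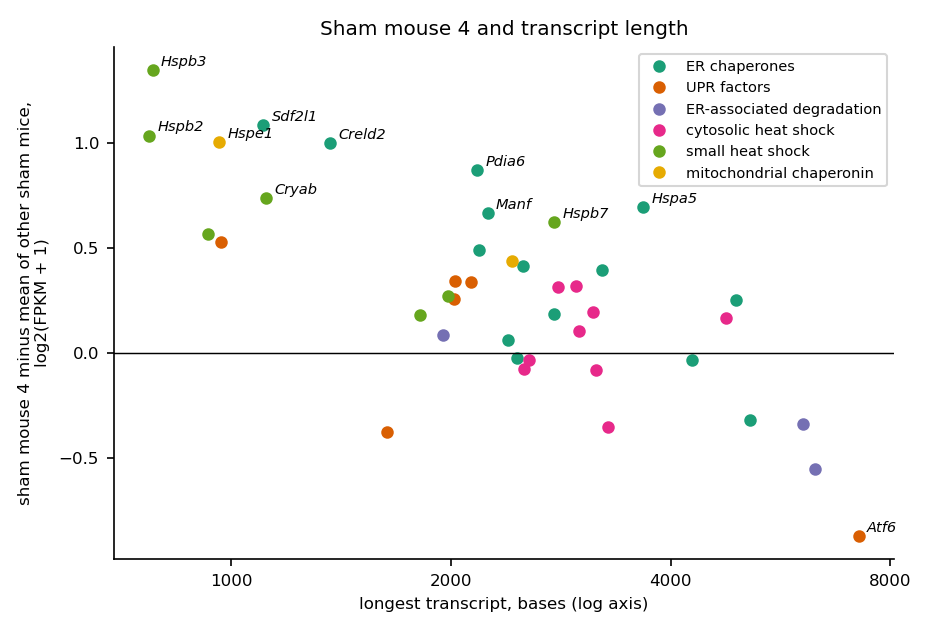
Difference between sham mouse 4 and the average of the remaining sham mice on log2(FPKM + 1) (vertical axis) against the length of the longest transcript in bases (horizontal log axis) for the 41 genes, coloured by role. The highest point is Hspb3 at 1.34, and the longest transcript, Atf6, lies at -0.87.

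The promoters show which genes carry the letters that the UPR factors are known to bind. RefSeq windows of GRCm38.p6, from 250 bases before to 50 after the transcription start, covered 32 of the 41 genes and 27025 genes in all. They were searched on both strands for the ER stress response element (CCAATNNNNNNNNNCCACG), its second form (ATTGGNCCACG), the UPR element TGACGTGG, the amino acid response element TTGCATCA that ATF4 and its partners are known to use, and a heat shock element of 3 alternating units (GAANNTTCNNGAA or TTCNNGAANNTTC, which are each other's reverse complement). The first form was present in 7 of the 32 genes (Calr, Canx, Creld2, Dnajc3, Hsp90b1, Hspa5 and Pdia6) and in 0.137% of all genes. The second form was found in Dnajb11 and Herpud1, against 0.0444% of all genes. The UPR element was in none of the 32 and in 0.714% of all genes, the amino acid response element in Chac1 and Herpud1 against 1.03%, and the heat shock element in Hspd1, Hspe1 and Hsph1 against 0.662%. Such a match describes letters in a window and not a bound site. No window was available for Manf, Hyou1, Atf6, Hsf1, Hspa8, Hsp90aa1, Hsp90ab1, Hspb2 and Cryab, so these genes were not searched.

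The stretches that follow are shown because Hspa5, Calr, Canx and Creld2 share the first form while only Calr and Creld2 among them were called, because Herpud1, which fell, holds the second form and an amino acid response element, and because for Hspe1 a heat shock element lies between the RefSeq starts of a pair of divergent genes. In the coordinates of the deposited genes that element lies inside Hspd1. Capitals mark the fixed letters of each element, and the bases run 5′ to 3′ along the strand of the gene. Hspa5 is at chr2:34772013-34772055 (plus strand), Calr at chr8:84847063-84847105 (minus), Canx at chr11:50325788-50325830 (minus), Creld2 at chr15:88819508-88819550 (plus), Herpud1 at chr8:94386305-94386399 (plus) and Hspe1 at chr1:55088047-55088088 (plus), all upstream of the start.
Hspa5: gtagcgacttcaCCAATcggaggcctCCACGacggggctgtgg
Calr: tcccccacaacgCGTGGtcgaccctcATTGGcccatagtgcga
Canx: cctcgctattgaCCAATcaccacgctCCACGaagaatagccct
Creld2: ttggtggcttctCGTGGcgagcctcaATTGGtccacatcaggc
Herpud1: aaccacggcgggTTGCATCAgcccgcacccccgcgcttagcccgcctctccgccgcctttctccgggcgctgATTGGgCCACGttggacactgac
Hspe1: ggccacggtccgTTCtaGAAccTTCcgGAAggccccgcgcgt

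Of the 9 genes with either form of the ER element, 3 rose (Calr, Creld2 and Hsp90b1), 1 fell (Herpud1) and 5 were not called, with log2 FC from -0.61 to 0.71 around a median of 0.40. Over all tested genes that hold either form, these 9 included, 9 of 23 rose and 1 fell, with a median of 0.29. Of all genes tested 27.1% rose and 4.6% fell. Calr, Creld2 and Canx hold the same element and had log2 FC of 0.52, 0.71 and -0.11.

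Among the ER chaperones, 7 of 14 rose, none fell (limma, 0 at an unadjusted p below 0.05) and 7 were not called, beside 27.1% and 4.6% of all genes rising and falling. After median-ratio scaling 2 of the 14 rose and 1 fell, beside 13.2% and 12.1% of all genes. BiP (Hspa5), the master chaperone and the classic readout of the UPR, measured 87.2, 94.3, 124, 85.7 and 96.1 FPKM in nAAC mice 1 to 5 and 61.9, 74.1, 82.2, 125 and 92.6 FPKM in sham mice 1 to 5, an order kept for all values that follow. Sham mouse 4 was the highest of all 10 and sham mouse 5 also lay inside the nAAC range, and the difference did not pass (log2 FC 0.19 ± 0.18 (SE), adjusted p = 0.452). It was 0.32 without sham mouse 4 (adjusted p = 0.0999) and turned to -0.09 after median-ratio scaling (adjusted p = 0.748).

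Pdia4, a disulfide isomerase of the ER, had the lowest adjusted p of the group. Its level was 8.56, 9.13, 14.4, 11.9 and 11.0 FPKM in nAAC mice and 4.94, 6.56, 6.77, 6.62 and 7.16 FPKM in sham mice. No nAAC mouse fell within the sham range, and the mean was 1.72 times that of sham mice (log2 FC 0.69 ± 0.14 (SE), adjusted p = 0.00335). After median-ratio scaling its log2 FC was 0.43 (adjusted p = 0.0304).

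Sdf2l1, a small partner of the BiP complex, measured 2.10, 2.33, 5.04, 3.48 and 3.72 FPKM in nAAC mice and 0.478, 0.290, 1.35, 2.84 and 1.41 FPKM in sham mice. Sham mouse 4 lay inside the nAAC range and the other sham mice below it (log2 FC 0.998 ± 0.27 (SE), adjusted p = 0.0145). Creld2, a disulfide isomerase-like protein secreted on ER stress, measured 4.65, 6.82, 8.99, 7.26 and 5.08 FPKM and 2.67, 2.40, 3.12, 6.90 and 3.73 FPKM, again with sham mouse 4 inside the nAAC range (log2 FC 0.71 ± 0.22 (SE), adjusted p = 0.0287). Without sham mouse 4 these were 1.22 (adjusted p = 0.00195) and 0.91 (adjusted p = 0.00162). Neither passed with the Xist level as a covariate (0.65, adjusted p = 0.160 and 0.57, adjusted p = 0.182). Creld2 no longer passed after median-ratio scaling (log2 FC 0.48, adjusted p = 0.115), and its call held in 10 of the 22 alternatives.

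Calreticulin (Calr), the calcium-binding lectin chaperone, measured 54.8, 73.7, 91.5, 83.7 and 74.7 FPKM in nAAC mice and 41.4, 44.6, 49.96, 68.1 and 58.6 FPKM in sham mice. The groups overlapped through nAAC mouse 1, which was the lowest nAAC mouse, and sham mice 4 and 5 (log2 FC 0.52 ± 0.17 (SE), adjusted p = 0.0341). Hyou1, an Hsp70-like nucleotide exchange factor of the ER, was at 6.38, 7.25, 7.87, 8.47 and 6.41 FPKM and 4.31, 3.86, 4.22, 5.69 and 6.42 FPKM, with overlap through sham mouse 5 (log2 FC 0.50 ± 0.14 (SE), adjusted p = 0.0146). Pdia3, the partner of the lectin chaperones, rose by 0.50 ± 0.12 (SE, adjusted p = 0.00657) with no overlap, and Hsp90b1, the ER form of Hsp90, by 0.40 ± 0.14 (adjusted p = 0.0415) with overlap. After median-ratio scaling none of the 4 passed by limma (1, Hyou1, at an unadjusted p below 0.05), with log2 FC of 0.24, 0.26, 0.22 and 0.12 in the order named and adjusted p from 0.0966 to 0.541. With the Xist level as a covariate these 4 did not pass either (limma, 2, Pdia3 and Hyou1, at an unadjusted p below 0.05, adjusted p from 0.0760 to 0.230). Over the 22 alternatives the calls of Calr, Hyou1, Pdia3 and Hsp90b1 held in 9, 17, 19 and 8.

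The 7 chaperones that were not called ran from -0.11 to 0.51. Pdia6 (0.51, adjusted p = 0.0577) and Dnajb11 (0.41, adjusted p = 0.0579) missed the threshold, and both passed without sham mouse 4 (log2 FC 0.68 and 0.50, adjusted p = 0.00238 and 0.0198). Manf, a secreted ER stress factor, was at 0.31 (adjusted p = 0.206) and passed only without that mouse among the 22 alternatives (0.45, adjusted p = 0.0441). Dnajc3 was at 0.25 and Dnajb9, a co-chaperone of BiP, at -0.07. Canx, the membrane-bound lectin chaperone, lay at -0.11 and fell after median-ratio scaling (-0.39, adjusted p = 0.0110).

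**Figure D3:**
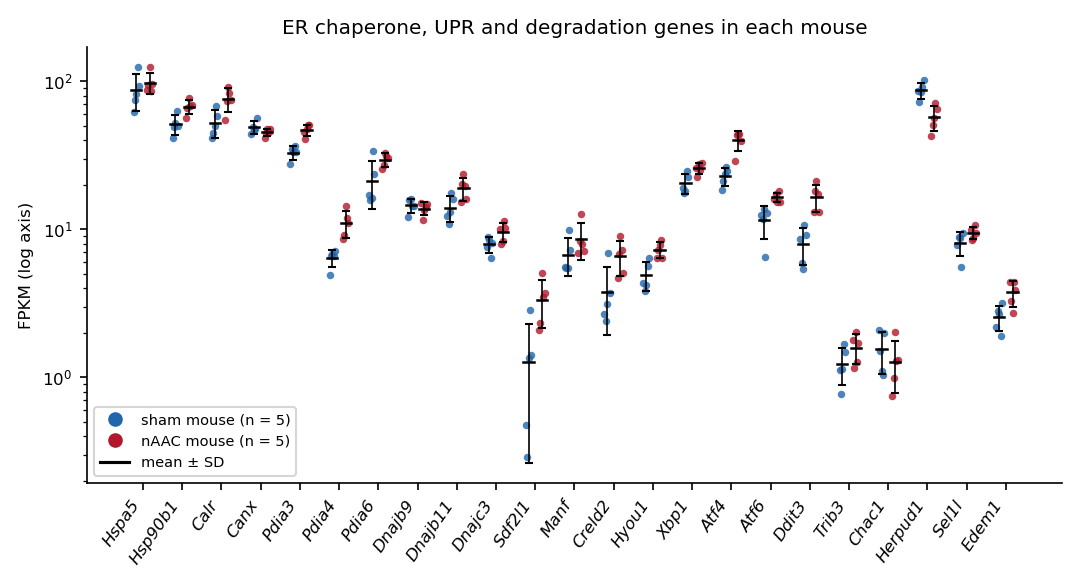
FPKM (log axis) of the 23 ER genes in each of the 5 sham mice (blue) and 5 nAAC mice (red), with the mean ± SD of each group in black. Atf4, Ddit3 and Pdia4 show red points above all blue points, Herpud1 shows the reverse, and Hspa5 overlaps, with means of 97.4 and 87.2 FPKM in nAAC and sham mice.

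Of the 6 UPR factors 3 rose and 3 were not called, and 2 rose after median-ratio scaling. The shares of all genes that rose were 27.1% and 13.2%. Atf4, the transcription factor made when eIF2α is phosphorylated, measured 29.0, 43.2, 44.0, 44.0 and 39.6 FPKM in nAAC mice and 18.5, 21.1, 23.5, 26.3 and 24.8 FPKM in sham mice. Every nAAC mouse was above every sham mouse, nAAC mouse 1 being the lowest of its group (log2 FC 0.78 ± 0.15 (SE), adjusted p = 0.00148). Ddit3 (CHOP), a partner of ATF4 linked to cell death, was at 13.1, 18.2, 21.1, 17.4 and 13.1 FPKM in nAAC mice and 8.62, 5.93, 5.42, 10.7 and 9.17 FPKM in sham mice. Its groups did not overlap, the mean was 2.08 times that of sham mice (log2 FC 0.99 ± 0.19 (SE), adjusted p = 0.00161), and both genes passed after median-ratio scaling, with log2 FC of 0.50 and 0.73. The tables list a second gene ID named Ddit3, which did not exceed 0.00506 FPKM in any mouse, and 68 bases of Ddit3 overlap Mars1 on the other strand.

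Atf6, the sensor cleaved to a transcription factor, measured 16.1, 17.3, 15.3, 18.1 and 15.3 FPKM in nAAC mice and 12.6, 11.8, 13.7, 6.50 and 12.9 FPKM in sham mice. The groups did not overlap, and sham mouse 4 was far below the other sham mice (log2 FC 0.52 ± 0.17 (SE), adjusted p = 0.0343). Without that mouse the log2 FC was 0.34 (adjusted p = 0.0173), and after median-ratio scaling 0.25 (adjusted p = 0.345). The call held in 8 of the 22 alternatives and was lost when any nAAC mouse or sham mouse 2 was left out.

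Xbp1, whose mRNA IRE1 splices, was at 26.1, 22.4, 27.4, 25.2 and 27.8 FPKM in nAAC mice and 19.1, 17.7, 18.1, 24.6 and 22.5 FPKM in sham mice. The groups overlapped and the difference did not pass (log2 FC 0.33 ± 0.12 (SE), adjusted p = 0.0577), nor do gene totals show splicing. It passed without sham mouse 4 (0.40, adjusted p = 0.0147) and was 0.06 after median-ratio scaling. Trib3 and Chac1, known targets of ATF4 and CHOP, were the lowest of the group in level, between 0.748 and 2.10 FPKM in all mice. Their log2 FC were 0.21 (adjusted p = 0.252) and -0.17 (adjusted p = 0.466).

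ERAD genes did not move one way. Herpud1, which organises the degradation complex in the ER membrane, was the one gene of the 41 that fell. It measured 42.5, 50.4, 56.7, 70.7 and 64.8 FPKM in nAAC mice and 85.3, 72.4, 84.2, 90.6 and 102 FPKM in sham mice. All nAAC mice were below all sham mice, and the mean was 0.655 times that of sham mice (log2 FC -0.61 ± 0.15 (SE), adjusted p = 0.00933). The fall was larger after median-ratio scaling (-0.89, adjusted p = 0.00015), and of the 22 alternatives 1 ended the call, TPM in place of FPKM (-0.45, adjusted p = 0.0588). Edem1, a lectin that draws misfolded glycoproteins out of folding, rose by 0.42 ± 0.14 (adjusted p = 0.0350) but not after median-ratio scaling (0.21, adjusted p = 0.292) or without sham mouse 4 (0.35, adjusted p = 0.0580). Its call held in 7 of the 21 alternatives that tested it. Sel1l, the scaffold of the ubiquitin ligase, was at 0.22 (adjusted p = 0.233).

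The ratio of 2 genes within a mouse does not depend on the scaling of its library, but it can still carry a trend with transcript length. A set of 5 ratios, chosen after the values were seen, were tested by two-sided exact permutation tests, for which 0.0079 is the smallest p. Because of that choice, the p values of the ratios here and below are a description and lend no support. Hspa5 was 1.21 to 2.18 times Herpud1 in nAAC mice and 0.726 to 1.38 times in sham mice, with overlap (exact permutation p = 0.016, adjusted over the 5 ratios 0.02). Ddit3 over Hspa5 was 0.171 ± 0.0280 in nAAC mice and 0.0940 ± 0.0279 in sham mice (SD, n = 5 each), also with overlap (exact permutation p = 0.016, adjusted 0.02).

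Small heat shock proteins held the largest FPKM levels of the set and rose in 5 of 7 cases, in all 22 alternatives. Of all genes 27.1% rose, and 13.2% after median-ratio scaling. Hspb1 (Hsp27), which binds actin and unfolding proteins, measured 434, 325, 375, 288 and 305 FPKM in nAAC mice and 89.2, 65.3, 69.3, 123 and 117 FPKM in sham mice. The groups lay far apart, and the nAAC mean was 3.72 times the sham mean (log2 FC 1.91 ± 0.20 (SE), adjusted p = 1.4e-05). It ranked 103 of 11867 genes by log2 FC, the highest rank of the 41.

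Hspb7, a cardiac small heat shock protein that binds thin filaments, was at 711, 1025, 929, 873 and 739.8 FPKM in nAAC mice and 249, 223, 248, 441 and 484 FPKM in sham mice. Sham mice 4 and 5 were well above sham mice 1 to 3, and all were below the nAAC mice (log2 FC 1.44 ± 0.23 (SE), adjusted p = 0.00049). Hspb6 (Hsp20) measured 466, 483, 450.5, 490.1 and 559.9 FPKM and 213, 208, 170.2, 248 and 236 FPKM, without overlap (log2 FC 1.19 ± 0.14 (SE), adjusted p = 4.1e-05). Hspb8, which acts with Bag3 in the removal of damaged filament proteins, measured 214, 239, 255, 206 and 212 FPKM and 109, 90.6, 96.8, 124 and 149 FPKM, also without overlap (log2 FC 0.996 ± 0.15 (SE), adjusted p = 0.00036).

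Cryab (αB-crystallin), the desmin chaperone, was the most abundant of the 41 genes per length, at 1213, 1182, 1226, 1202 and 1184 FPKM in nAAC mice and 530.0, 489, 512, 934 and 741 FPKM in sham mice. The nAAC mice were nearly alike, with a coefficient of variation of 1.55% against 30.0% in sham mice, and lay above all sham mice (log2 FC 0.95 ± 0.19 (SE), adjusted p = 0.00201). Its neighbour Hspb2, which starts on the other strand and overlaps the annotated Cryab gene over 1030 bases (chr9:50751325-50752354, mm10), did not move with it, at 43.5 ± 11.5 FPKM in nAAC mice and 54.0 ± 24.3 in sham mice (SD, n = 5 each, log2 FC -0.24 ± 0.28 (SE), adjusted p = 0.529). After removal of length and GC trends Hspb2 fell (log2 FC -0.60, adjusted p = 0.00501 by limma). Use of strand in counting was not given in the sources used here, so reads in the overlap cannot be assigned. Cryab was 22.8 to 46.8 times Hspb2 in nAAC mice and 10.4 to 16.2 times in sham mice, without overlap (exact permutation p = 0.0079, adjusted 0.02). Hspb3, at 0.31 (adjusted p = 0.399), passed without sham mouse 4 (0.58, adjusted p = 0.0233), its highest value of all 10 mice.

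**Figure D4:**
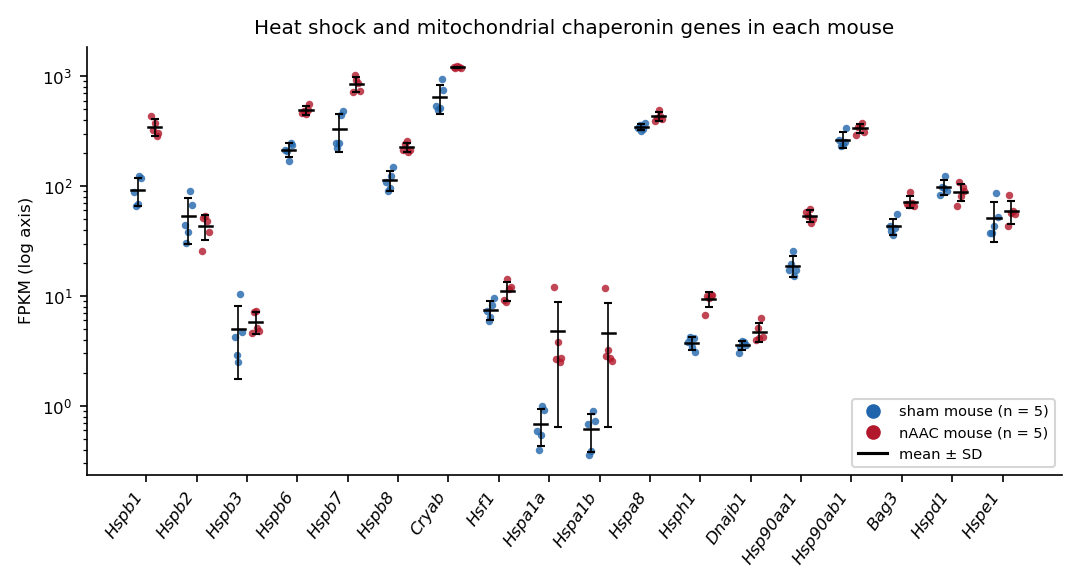
FPKM (log axis) of the 16 heat shock genes and the 2 chaperonin genes in each of the 5 sham mice (blue) and 5 nAAC mice (red), with the mean ± SD of each group in black. Hspb1, Hspb6, Hspb7, Hspb8, Cryab, Hsph1 and Hsp90aa1 show separate groups, Hspb2 and the chaperonin genes overlap, and 1 nAAC mouse stands above the others near 12 FPKM for Hspa1a and Hspa1b.

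Of the 9 cytosolic heat shock genes 6 rose, and 5 after median-ratio scaling, beside 27.1% and 13.2% of all genes. Both counts include Hspa1a and Hspa1b, which passed the filter through the nAAC mice and are not read against those shares. Hsp90aa1, the stress-inducible Hsp90, measured 57.8, 53.5, 62.2, 45.9 and 49.9 FPKM in nAAC mice and 17.2, 19.6, 25.4, 15.1 and 17.3 FPKM in sham mice. No values overlapped and the mean was 2.85 times the sham mean (log2 FC 1.47 ± 0.15 (SE), adjusted p = 9.9e-06). The constitutive Hsp90ab1, at 334 ± 31.9 FPKM in nAAC mice and 264 ± 43.0 in sham mice (SD, n = 5 each), overlapped and did not pass (log2 FC 0.35 ± 0.14 (SE), adjusted p = 0.0828). Hsp90aa1 was 0.123 to 0.196 of Hsp90ab1 in nAAC mice and 0.0512 to 0.108 in sham mice, without overlap (exact permutation p = 0.0079, adjusted 0.02), and the longest annotated transcripts share no 50-base word.

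Hsph1 (Hsp110), a nucleotide exchange factor for Hsp70, was at 6.77, 9.98, 9.58, 10.3 and 10.2 FPKM in nAAC mice and 3.81, 4.24, 3.45, 4.17 and 3.07 FPKM in sham mice. Every nAAC mouse was above every sham mouse, nAAC mouse 1 being the lowest nAAC mouse (log2 FC 1.12 ± 0.13 (SE), adjusted p = 3.5e-05). Bag3, the co-chaperone that couples Hsp70 to autophagy of filament proteins, measured 68.9, 67.7, 87.5, 70.5 and 66.4 FPKM and 43.8, 38.8, 35.6, 41.7 and 55.2 FPKM, again without overlap (log2 FC 0.74 ± 0.14 (SE), adjusted p = 0.00152). Hsf1, the heat shock factor, measured 9.24, 8.77, 14.3, 11.5 and 12.0 FPKM and 7.28, 5.88, 6.38, 8.33 and 9.58 FPKM, with overlap through sham mouse 5 (log2 FC 0.52 ± 0.15 (SE), adjusted p = 0.0229), and it no longer passed after median-ratio scaling (0.26, adjusted p = 0.177). The Hsf1 call held in 11 of the 22 alternatives.

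The inducible Hsp70 genes Hspa1a (chr17:34969190-34972156) and Hspa1b (chr17:34956436-34959238) are near-identical neighbours in mm10. Hspa1a measured 12.1, 2.68, 3.79, 2.53 and 2.73 FPKM in nAAC mice and 0.597, 0.40, 0.543, 0.997 and 0.920 FPKM in sham mice, and Hspa1b 11.7, 2.82, 3.26, 2.75 and 2.57 FPKM and 0.690, 0.356, 0.389, 0.905 and 0.736 FPKM. All nAAC mice were above all sham mice, and nAAC mouse 1 was far above the other nAAC mice (log2 FC 1.57 ± 0.30 (SE), adjusted p = 0.00180 for Hspa1a, log2 FC 1.61 ± 0.30 (SE), adjusted p = 0.00129 for Hspa1b). Without nAAC mouse 1 the log2 FC were 1.22 (adjusted p = 7.2e-05) and 1.26 (adjusted p = 2.8e-05). Both genes passed the filter through the nAAC mice, so these p values are given as a description. Of the 50-base words of Hspa1a 58.8% occur in Hspa1b, so the division of reads between the 2 is uncertain and they are not independent of each other. That mouse was at the same time the lowest nAAC mouse for 23 of the 41 genes, and nAAC mouse 3 the highest for 21.

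Constitutive Hsp70 (Hspa8) and its co-chaperone Dnajb1 did not pass, although their groups did not overlap. Hspa8 was at 431 ± 39.4 FPKM in nAAC mice and 345 ± 24.1 in sham mice (SD, n = 5 each, log2 FC 0.32 ± 0.13 (SE), adjusted p = 0.0717), and Dnajb1 at 4.75 ± 0.957 and 3.55 ± 0.346 FPKM (log2 FC 0.33 ± 0.12 (SE), adjusted p = 0.0593). Dnajb1 passed without sham mouse 4 (0.35, adjusted p = 0.0495). After median-ratio scaling their log2 FC were 0.04 and 0.10.

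The mitochondrial chaperonin genes Hspd1 (Hsp60) and Hspe1 (Hsp10) start head to head, overlap over 112 bases and share the heat shock element shown for Hspe1. Hspd1 was at 88.9 ± 16.4 FPKM in nAAC mice and 98.8 ± 15.7 in sham mice (log2 FC -0.16 ± 0.16 (SE), adjusted p = 0.467), and Hspe1 at 59.6 ± 14.3 and 51.3 ± 20.2 FPKM (SD, n = 5 each, log2 FC 0.25 ± 0.23 (SE), adjusted p = 0.414). Hspd1 was lower after median-ratio scaling (-0.43, adjusted p = 0.0428) and after removal of length and GC trends (adjusted p = 0.0454). Hspe1 over Hspd1 was 0.667 ± 0.0620 in nAAC mice and 0.509 ± 0.122 in sham mice, with overlap through sham mouse 4 (exact permutation p = 0.04, adjusted 0.04).

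Lists of other genes of these pathways were read from the same fit. Of 77 tested ER companions 41 rose and none fell (limma, with 1, Vldlr, lower at an unadjusted p below 0.05), with a median log2 FC of 0.37. Over all genes 27.1% rose and 4.6% fell. After median-ratio scaling 22 rose and 4 fell (Vldlr, Fkbp10, Cdnf and Erlec1, named after their values were seen), beside 13.2% and 12.1% of all genes. The integrated stress response list had 10 of 20 tested genes rising, 7 of them past a log2 FC of 1. Of the 10, Gdf15, Mthfd2, Atf3 and Asns had a mean below 1 FPKM in sham mice and passed the filter through the nAAC mice, so that their levels are given as a description and the count is not read against all genes. Nupr1, a stress-induced chromatin protein, was at 15.5 ± 3.44 FPKM in nAAC mice and 2.40 ± 1.28 in sham mice (log2 FC 2.32 ± 0.23 (SE), adjusted p = 1.1e-05). Gdf15, a stress cytokine, was at 4.30 ± 2.33 and 0.199 ± 0.0987 FPKM (log2 FC 2.06 ± 0.22 (SE), adjusted p = 1.7e-05), and Mthfd2, a mitochondrial folate enzyme, at 4.64 ± 1.32 and 0.652 ± 0.155 FPKM (log2 FC 1.75 ± 0.15 (SE), adjusted p = 3e-06). The stress transcription factors Atf3 and Atf5 had log2 FC of 1.37 and 1.29, Ppp1r15a (GADD34), which reverses eIF2α phosphorylation, 1.21, and Aldh18a1, an enzyme of proline synthesis, 1.11, all without overlap of groups. After median-ratio scaling 10 rose as well, and Vldlr fell.

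Other ER folding genes rose in 15 of 27 cases, most steeply Rcn3 (1.71), a calcium-binding protein of the secretory pathway, Serpinh1 (Hsp47, 1.24), the collagen chaperone, Txndc5 (1.21), a disulfide isomerase, and Fkbp11 (1.13), a prolyl isomerase. Among UPR sensors and proteases 5 of 10 rose, with Creb3l2, an ATF6-like factor, at 1.30 (adjusted p = 6.2e-06). Of other ERAD genes 11 of 20 rose, none past a log2 FC of 1 by limma whatever its p, led by Aup1 (0.68), Os9 (0.68), Ube2g2 (0.67) and Selenos (0.55), and 2 rose and 1 fell after median-ratio scaling. Other cytosolic chaperones rose in 16 of 39 cases, with Hspa1l at 1.92, Dnaja4 at 1.08 and Bag2 at 1.04, and 1 fell, Hspa12a (-0.43, named after its value was seen). Over all genes 27.1% rose, and after median-ratio scaling 13.2% rose and 12.1% fell. After that scaling 8 of the other ER folding genes, 2 of the UPR sensors and proteases and 8 of the other cytosolic chaperones rose, and 2, 0 and 3 fell. Hspa1l lies beside Hspa1a, and 9.57% of its 50-base words occur there.

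**Figure D5:**
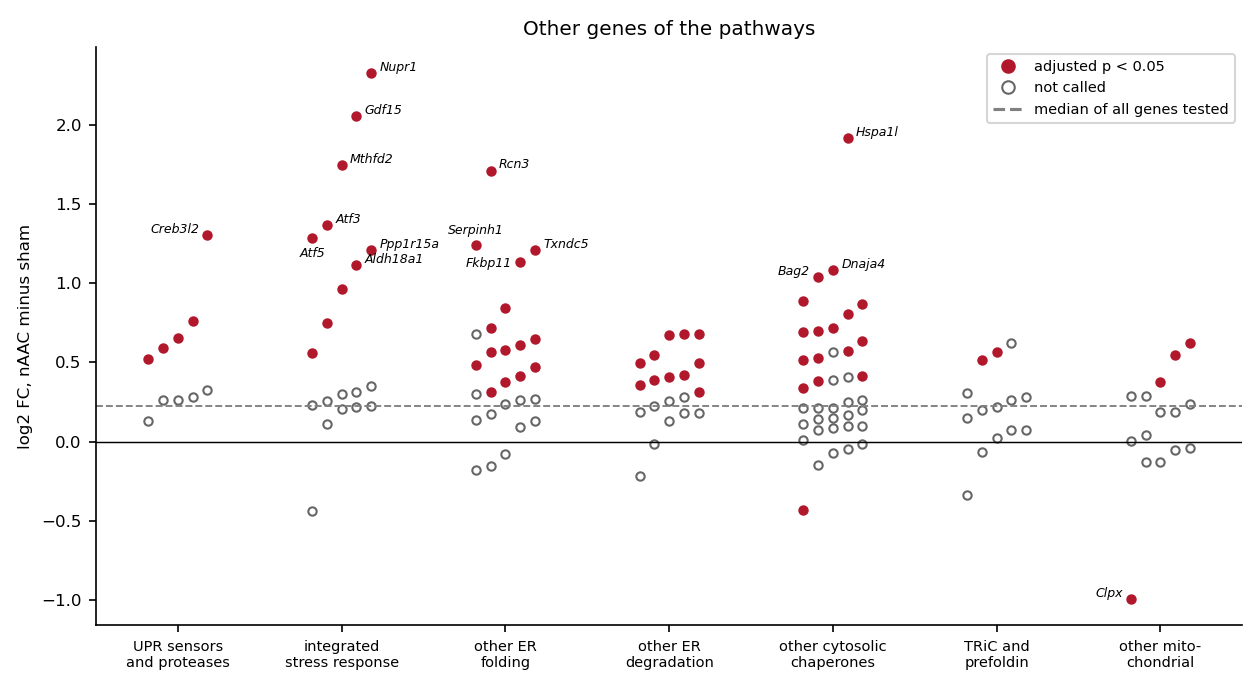
Log2 FC (nAAC minus sham, vertical axis) of the tested companion genes in 7 lists, 1 point per gene, red where adjusted p < 0.05 and open where not; the dashed line is the median of all genes, 0.22. The integrated stress response list reaches 2.32 with Nupr1, and Clpx lies lowest at -0.99.

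The LV is a mixed tissue, and a lower count of cells of a type cannot be told apart here from less RNA per cell. Of 10 fibroblast markers 7 rose, and the summed level of the 10 was 661 to 1152 FPKM in nAAC mice against 427 to 451.5 in sham mice. They did not move evenly, with Postn at 3.78 and Col1a1 at 2.09, while Pdgfra (0.262), Dpt (0.285) and Fbln1 (0.235) were not called. Of 8 mural markers 5 rose (summed 297 to 426 against 199.97 to 334 FPKM). Of 10 macrophage and leukocyte markers 3 rose (summed 153 to 308 against 103 to 216 FPKM) and of 10 endothelial markers 3 (282 to 440 against 244 to 346 FPKM), which is near the 27.1% of all genes that rose. After median-ratio scaling, with 13.2% of all genes rising, 5 of the fibroblast, 3 of the mural, 1 of the macrophage and leukocyte and 1 of the endothelial markers rose. Cardiomyocyte markers, which were present in all mice as the tissue label says, were split, 2 rising and 3 falling of 12 (summed 17573 to 26983 against 19598 to 34710 FPKM). The part of these differences in the ER and heat shock values was not tested. Plasma cells are rich in ER chaperones, and of the 10 markers of B and plasma cells 3 reached a mean of 1 FPKM. Of these 3, Sdc1, a surface proteoglycan that other cells also carry, rose (log2 FC 0.66 ± 0.12 (SE), adjusted p = 0.00131, named after its value was seen), and the summed level of the 10 was 10.04 to 14.4 FPKM in nAAC mice and 7.37 to 12.4 in sham mice. The others of these 3 were present and not called by limma. Ighm was at 4.27 FPKM in nAAC mice and 4.51 in sham mice (log2 FC -0.07, adjusted p = 0.767), and Igkc at 2.37 and 1.96 FPKM (log2 FC 0.16, adjusted p = 0.627). Jchain, a defining plasma cell gene, was near 0, at 0.0780 ± 0.0936 FPKM in nAAC mice and 0.0712 ± 0.0750 in sham mice (SD, n = 5 each). The part of plasma cells in the ER values was not tested.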

How the data were processed

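LV tissue RNA was extracted with Trizol and libraries were made with the NEBNext Ultra kit per the labels. For each mouse the authors deposited 1 table with the mean read coverage, the FPKM and the TPM of each gene, and TPM sums to 1000000 per library. The deposited coverage is reads per base and FPKM is scaled by the authors for depth. The genome build is mm10 in the submitters' processing notes, and the aligner, counter and use of strand are not given in the sources used here. Of 55141 gene IDs shared with GENCODE M21, 99.42% had the same start and end.

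Rows sharing a gene ID (7 to 12 extra per library) were summed. Values were tested as log2(FPKM + 1) with limma 3.58.1 in R 4.3.3 (empirical Bayes trend, no covariate, genes averaging 1 FPKM or more, Benjamini-Hochberg over all 11867), all 5 nAAC against all 5 sham mice. The thresholds, adjusted p below 0.05 and for large changes a log2 FC above 1, are those of the study. The fit was tested on simulated data. Single ratios were tested by exact permutation. Python 3.11.15, pandas 2.3.3, scipy 1.17.1 and matplotlib 3.10.9 served for tables and figures. Values per mouse are given for genes with a call and an absolute log2 FC of at least 0.5 and for 9 chosen genes, and companion genes are named past a log2 FC of 1 or, in a list without one, for up to 4 with the largest. The genes, their companion and marker lists and this rule were chosen with earlier results of these data known. Alternatives were other scalings, TPM, other filters and pseudocounts, a replicate block, a Xist covariate, removal of length and GC trends, a stricter threshold, the highest row in place of the sum, and leaving out each mouse.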

Additional observations from a re-analysis of the deposited data

Results flagged for a closer look

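In 8 of 82 groups of 5 mice (41 genes in 2 groups), 1 mouse stood apart from the rest, in that its gap to the nearest mouse exceeded 0.71 of the range on log2(FPKM + 1). Chance gives about 1 in 20, or 4.1 groups, and the genes share their mice. Of the 8, 4 were nAAC mouse 1, which was high for Hspa1a (12.1 against 3.79 FPKM in the next mouse, gap 0.77 of the range) and Hspa1b (11.7 against 3.26 FPKM, gap 0.86) and low for Atf4 (29.0 against 39.6 FPKM, gap 0.74) and Hsph1 (6.77 against 9.58 FPKM, gap 0.82). The same mouse was thus high for the inducible Hsp70 genes and low for Hsp110. For nAAC mouse 3, Manf was high (12.7 against 8.30 FPKM, gap 0.71) and Bag3 was high (87.5 against 70.5 FPKM, gap 0.78). Sham mouse 1 was low for Pdia4 (4.94 against 6.56 FPKM, gap 0.76), and sham mouse 4 was low for Atf6 (6.50 against 11.8 FPKM, gap 0.79).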

How the results depend on the processing

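Over 22 alternatives the 41 genes gave 895 values, of which 764 kept their direction and side of the threshold, 90 lost and 29 gained significance, and 12 changed sign. None of the 12 changes of sign concerned a called gene. They were Hspa5 (-0.09 with median-ratio and -0.08 with upper-quartile scaling), Sel1l (-0.04, -0.02 and, with trends removed, -0.02), Hspe1 (-0.02 and -0.008), Dnajc3 (-0.004 with median-ratio scaling), Trib3 (-0.20 with trends removed) and, with TPM, Canx (0.06), Dnajb9 (0.09) and Hspd1 (0.01).

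The ER count of 12 called genes was 6 with median-ratio scaling, upper-quartile scaling or no filter, 4 with the Xist covariate, 7 with trends removed, 5 at an adjusted p below 0.01, and 7 to 15 when 1 mouse was left out (7 without nAAC mouse 4). The heat shock count of 11 stayed within 1.5 times in all alternatives, and was 10 to 13 with 1 mouse left out. With trends removed it was made up of 10 genes that rose and 1 that fell, Hspb2. Past a log2 FC of 1 there were 11 genes in place of 7 with TPM, 10 with a pseudocount of 0.1, and 7 to 11 with 1 mouse left out (11 without sham mouse 4 or 5). The ER companions numbered 26 in place of 41 with median-ratio scaling, 23 at a mean FPKM of at least 5 (fewer genes tested), 20 with the Xist covariate and 26 at an adjusted p below 0.01. The heat shock companions numbered 12 in place of 19 with the Xist covariate and 11 at an adjusted p below 0.01. Over all genes 3757 calls became 2085 at a mean FPKM of at least 5, 1983 with the Xist covariate and 2132 at an adjusted p below 0.01. The ER median of 0.41 was 0.15, 0.16, 0.16 and 0.59, and the heat shock median of 0.97 was 0.69, 0.71, 0.68 and 1.15, with median-ratio scaling, upper-quartile scaling, trends removed and TPM. Apart from the stricter threshold and filter, the cause was not tested.

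With the replicate number as a block, 3426 genes were called, of which 2929 rose and 497 fell, and of the 41 genes Atf6 and Edem1 lost and Pdia6 gained a call. The numbers share no source in the labels, and mice of the same number correlated from -0.32 to 0.19 in their deviations, so they were not taken as pairs. Depth limits Sdf2l1, Hspa1a and Hspa1b most, with a mean read coverage down to 1.503, 2.07 and 1.84 reads per base.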

Other observations

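Of 14 genes of the cytosolic chaperonin TRiC and its partner prefoldin, 2 rose, Cct8 (log2 FC 0.56 ± 0.13 (SE), adjusted p = 0.00475) and Cct3 (log2 FC 0.52 ± 0.12 (SE), adjusted p = 0.00539), and neither passed after median-ratio scaling (log2 FC 0.29 and 0.24). Of 15 other mitochondrial chaperones and proteases, 3 rose and 1 fell, where 27.1% of all genes rose and 4.6% fell. The one that fell was Clpx, the unfoldase of the matrix protease ClpXP, at 17.2, 20.3, 14.5, 18.9 and 16.3 FPKM in nAAC mice and 34.0, 35.2, 35.4, 32.1 and 41.0 FPKM in sham mice. All nAAC mice were below all sham mice (log2 FC -0.99 ± 0.12 (SE), adjusted p = 5.5e-05). The other matrix protease, Lonp1, rose (log2 FC 0.62 ± 0.15 (SE), adjusted p = 0.00690) but not after median-ratio scaling (0.35). The co-chaperone Grpel2 rose (log2 FC 0.55 ± 0.10 (SE), adjusted p = 0.00093) and passed there too, while Afg3l2, an inner membrane protease (log2 FC 0.38), rose but did not pass after that scaling.

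Erythroid markers were not called in any of 5 tested genes (limma, 0 at an unadjusted p below 0.05), with summed levels of 3396 to 8802 FPKM in nAAC mice and 2292 to 8661 FPKM in sham mice. Of 5 tested atrial markers 1 rose (Nppa) and 1 fell (Stard10), both named after their values were seen, and their sum of 6324 to 11737 against 99.3 to 208 FPKM was mostly Nppa, which hypertrophic ventricle also expresses. The atrial markers Myl7, Myl4 and Sln were not called and differed widely between mice of a group. Myl7 was at 1.098, 54.0, 79.8, 11.9 and 0.654 FPKM in nAAC mice and 22.3, 3.886, 3.655, 1.158 and 7.334 FPKM in sham mice. The part of atrial tissue in the ER and heat shock values was not tested.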
